A study of Mus musculus with 12 samples.

Results

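The genes described here encode the enzymes of the urea cycle and of the breakdown of tryptophan and tyrosine in mouse liver cells. They are 9 genes, Cps1, Otc, Ass1, Asl, Arg1, Tdo2, Hpd, Hgd and Fah, and a probe belongs to a gene where the RefSeq accession given for the probe in the array files maps to that gene's symbol. By that rule 8 of the 9 genes had a probe and Cps1 had none that matched, so that Cps1 was not analysed here. Otc and Tdo2 had 2 probes each, which gives 10 probes of 41174 on the array and 8 genes of 17016 with a symbol, and all 10 probes were among the 24960 tested. Each of the 10 probes was well above background on all 12 arrays. The probes of Otc and of Tdo2 are called the brighter and the dimmer probe of their gene, which only names them, since signals of different probes are not comparable.

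The urea cycle turns the ammonia released from amino acids into urea, and the hepatocyte is the cell that runs the whole cycle. Carbamoyl phosphate synthetase (Cps1) and ornithine transcarbamylase (Otc) work in the mitochondrion, and argininosuccinate synthetase (Ass1), argininosuccinate lyase (Asl) and arginase (Arg1) work in the cytosol. Tryptophan dioxygenase (Tdo2) opens the kynurenine route of tryptophan breakdown, while 4-hydroxyphenylpyruvate dioxygenase (Hpd), homogentisate dioxygenase (Hgd) and fumarylacetoacetase (Fah) carry tyrosine to fumarate and acetoacetate. Many of these enzymes are controlled in liver by glucocorticoids, glucagon and insulin.

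Primary hepatocytes of C57BL/6 mice were studied in 4 groups of 3 cultures. They were PGC-1alpha-/- cells with an adenovirus for a hairpin RNA against TLS (shTLS), PGC-1alpha-/- cells with a control hairpin adenovirus, PGC-1alpha+/+ cells with shTLS and PGC-1alpha+/+ cells with the control hairpin. PGC-1alpha is a coactivator of genes of energy metabolism, and TLS is an RNA-binding protein. All cultures were infected at a multiplicity of 5, harvested 24 h after infection, and grown in serum-containing medium with 100 nM dexamethasone, a glucocorticoid, and 100 nM insulin. Each of 3 mice per genotype gave 1 shTLS and 1 control culture, and there was no culture without virus, so that every comparison is between infected cells in hormone-containing medium. The labels do not give the age of the mice, the hairpin sequences or the part of the PGC-1alpha gene that is deleted.

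RNA of each culture was hybridised to a single-colour Agilent array, and values are given as log2 of the quantile-normalized signal, so that a difference of 1 is a doubling. The authors' deposited values and those recomputed from the array files differed by at most 0.00676 for the 10 probes. The probe of Ppargc1a, the PGC-1alpha gene, differed by -0.18 between -/- and +/+ cells (adjusted p = 1, limma), which checks nothing without knowing the deleted part. All 10 hepatocyte markers were well above background. Before normalization the 75th percentile of the signal was 343.5 to 634.6 on the 6 shTLS arrays and 810.4 to 1064 on the 6 control arrays, and quantile normalization removes that difference. With the arrays scaled to 8 spike-in probes instead, the median of all tested probes was at -0.822 with shTLS averaged over genotypes, so that the values below are changes relative to the other genes of the same culture. As in any bulk culture, fewer cells of a type and less RNA per cell cannot be told apart.

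Promoter sequences were at hand for 6 of the 9 genes, from RefSeq (build GRCm38.p6), as the 250 bases before the start site on the gene's strand. Those of Ass1, Fah and Tdo2 are shown because the shTLS difference of Ass1 and Fah was lower in every mouse whereas that of Tdo2 was not. Capitals mark every match, on either strand, to 5 motifs: the TATA box TATAAA, the GC box GGGCGG, a C/EBP-type site TTGNGNAA, the core TGACG of the cAMP response element and the core AGAACA of the glucocorticoid receptor site.
Ass1, chr2:31470020-31470269, plus strand: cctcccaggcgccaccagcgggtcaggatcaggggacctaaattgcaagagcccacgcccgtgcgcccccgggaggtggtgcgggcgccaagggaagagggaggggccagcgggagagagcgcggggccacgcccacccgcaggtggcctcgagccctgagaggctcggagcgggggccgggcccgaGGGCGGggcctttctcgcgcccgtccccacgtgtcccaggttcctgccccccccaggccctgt
Fah, chr7:84605943-84606192, minus strand: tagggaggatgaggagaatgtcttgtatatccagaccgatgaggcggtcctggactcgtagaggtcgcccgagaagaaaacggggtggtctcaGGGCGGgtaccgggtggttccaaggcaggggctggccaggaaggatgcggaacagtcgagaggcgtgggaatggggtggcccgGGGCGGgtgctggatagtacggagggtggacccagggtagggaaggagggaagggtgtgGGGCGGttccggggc
Tdo2, chr3:81975729-81975978, minus strand: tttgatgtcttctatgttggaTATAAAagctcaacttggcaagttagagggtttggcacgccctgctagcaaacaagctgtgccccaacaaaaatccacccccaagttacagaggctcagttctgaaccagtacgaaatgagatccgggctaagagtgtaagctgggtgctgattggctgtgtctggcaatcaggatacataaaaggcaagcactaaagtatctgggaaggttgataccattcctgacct
The Ass1 and Fah windows were rich in G and C, at 75.6% and 64.4%, with 1 and 3 GC boxes, and held none of the other 4 motifs. The Tdo2 window was 46.4% G and C and held 1 TATA box, 229 bases before the start site. The Hgd window was 38.8% G and C and held 1 TATA box and 2 C/EBP-type sites, the Hpd window held 1 GC box, and the Otc window held no match. Of 32817 mouse promoters of the same length, 12.4% held the TATA box, 32.7% the GC box, 11.7% the C/EBP-type site, 17.7% the cAMP element core and 16.1% the glucocorticoid receptor core. A match describes the letters only, and the absence of one says only that these letters are not in this window.

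The first comparison asked what the TLS hairpin did to these genes, set against the control hairpin and averaged over both genotypes. Ass1 fell by 0.65 (1.57-fold lower) and was the only one of the 10 probes that passed at an adjusted p under 0.05. Across all tested probes 3.25% were lower at this threshold, and 1 of 10 is too small a count to set these genes apart from that share. Fah, Asl and the dimmer probe of Otc had differences of -1.27, -0.82 and -1.06 and passed with the replicate number as a block. The number marks mouse, assay and slide, and same-numbered mice of both genotypes, which are different animals, share a level of this block. The fit with it called 4 of the 10 probes, all lower, from 4 genes, and called 14.1% of all tested probes lower. Of the 10 probes 4 were lower with shTLS in all 6 mice, beside 19.1% of the probes measured in every mouse. The median difference of the 10 probes was -0.94, beside -0.021 for all tested probes, and 9 of the 10 were below 0, beside 51.4% of all tested probes.

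Some markers of cholangiocytes and macrophages fell with the hairpin as well, while no endothelial or stellate cell marker passed in either fit. Of 8 endothelial markers tested 2 were below 0 with shTLS (median 0.28), and of 6 stellate cell markers tested 4 were (median -0.26). The summed signal of the 6 cholangiocyte markers was 62200, 32300 and 18600 in -/- shTLS cultures, against 214000, 106000 and 49200 in -/- control cultures. It was 23100, 44300 and 19000 in +/+ shTLS cultures, against 142000, 92000 and 40700 in +/+ control cultures, lower in every mouse. Of these markers 4 of 6 were below 0 with shTLS (median -0.80) and none passed the unpaired fit, while Krt19, Spp1 and Krt7 passed with the block, at -2.11, -1.61 and -1.26. All 9 macrophage and Kupffer cell markers with a probe were below 0 (median -1.1), and 3 of them, Marco, Cd5l and Clec4f, passed with the block. Of 10 hepatocyte markers 9 were below 0 as well (median -0.29), and 1 of them, Apob, passed with the block, at -0.94. No marker of the cholangiocyte or macrophage list was below background on all arrays. Of the named ones Clec4f was above background on 8 arrays and Krt7 on 11, and the others on all 12. The part of these cells in the values of the 10 probes was not tested.

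**Figure D1:**
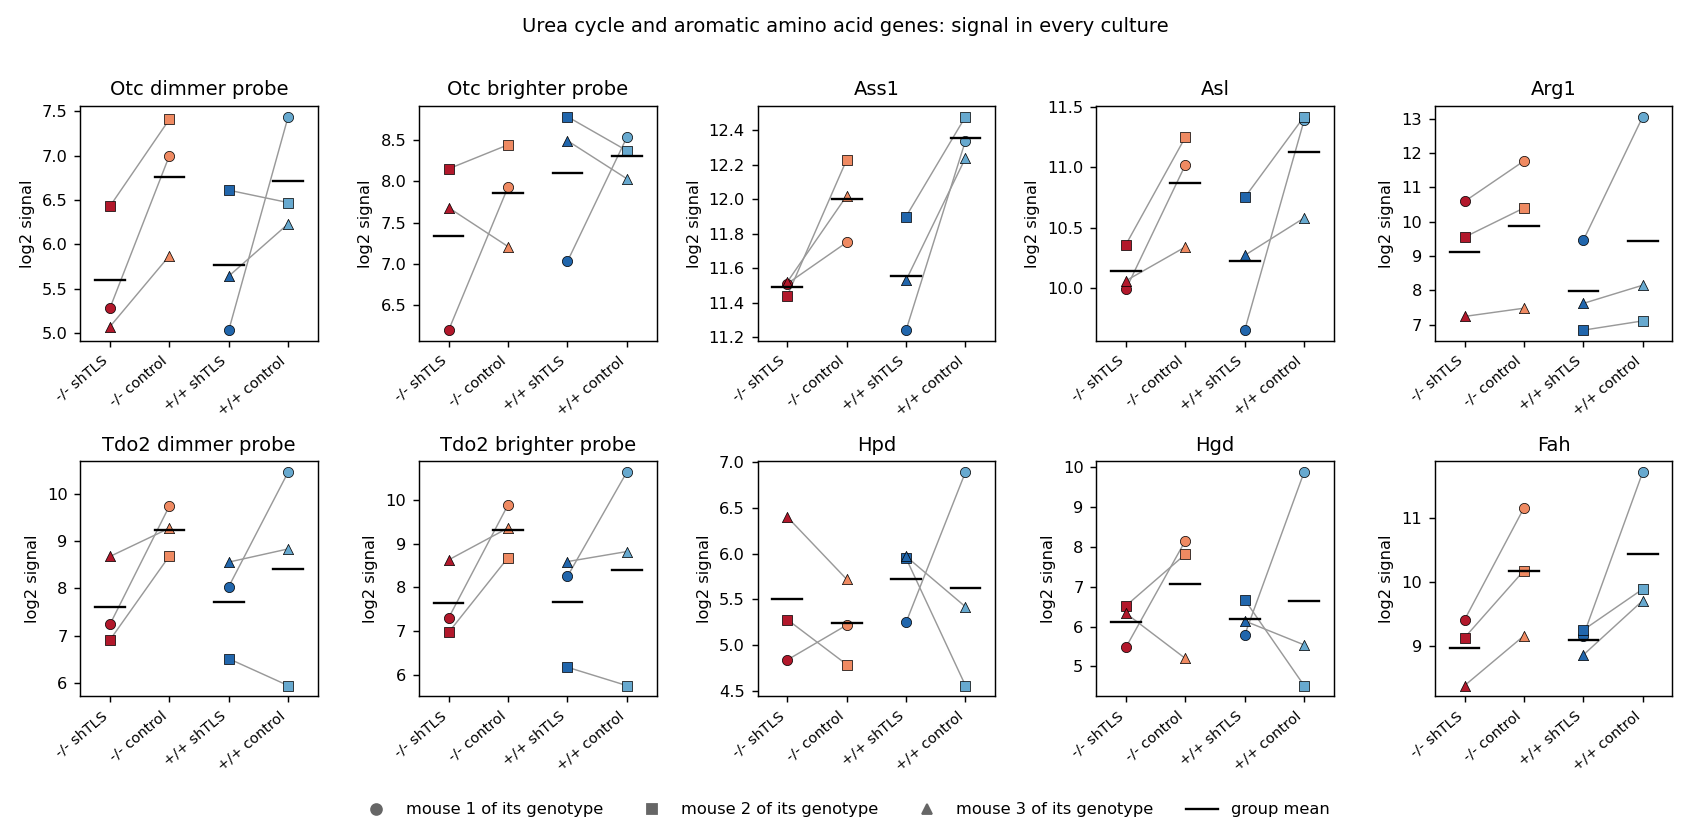
Signal (log2, quantile-normalized) of each of the 10 probes in all 12 cultures, with marker shapes for the mouse, grey lines joining the shTLS and control culture of 1 mouse and black bars for group means (n = 3). Ass1 has shTLS cultures below all control cultures of the same genotype, while Arg1, Tdo2 and Hgd range widely between cultures of a group, with 1 +/+ control culture highest.

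Among the cytosolic enzymes of the cycle, Ass1 joins citrulline and aspartate to argininosuccinate. Its signal was 11.51, 11.44 and 11.52 in -/- shTLS cultures, against 11.75, 12.23 and 12.02 in -/- control cultures. It was 11.24, 11.90 and 11.53 in +/+ shTLS cultures, against 12.34, 12.48 and 12.24 in +/+ control cultures. Within each genotype the shTLS and control cultures did not overlap, and Ass1 was lower with shTLS in 6 of 6 mice. The averaged difference of -0.65 had a standard error of 0.17, a 95% interval of -1.03 to -0.27 and an adjusted p of 0.0442 (limma), or 0.00941 with the replicate block. The call was lost on leaving out any 1 of 11 of the 12 arrays (adjusted p = 0.0561 to 0.113), held without the +/+ shTLS array of mouse 2 (0.0407), and was lost without both arrays of any 1 mouse (0.0542 to 0.189), with differences between -0.74 and -0.57. It was also lost when arrays were scaled to their 75th percentile (adjusted p = 0.0625). Under quantile normalization the -/- difference was -0.51 ± 0.24 (SE, adjusted p = 0.448) and the +/+ difference -0.79 ± 0.24 (SE, adjusted p = 0.162, or 0.032 with the replicate block).

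Asl splits argininosuccinate into arginine and fumarate. It read 9.99, 10.36 and 10.06 in -/- shTLS cultures, against 11.02, 11.25 and 10.34 in -/- control cultures. The +/+ shTLS cultures had 9.65, 10.75 and 10.27, against 11.39, 11.42 and 10.58 in +/+ control cultures. The shTLS and control cultures overlapped slightly in both genotypes, through mouse 3 on the control side, yet each of the 6 mice had the lower value with shTLS. The averaged difference was -0.82 ± 0.26 (SE, 95% interval -1.39 to -0.25), with adjusted p = 0.0725 in limma's unpaired fit and 0.0165 with the replicate block. Without the -/- control array of mouse 3 the unpaired fit called Asl, at -0.95 (adjusted p = 0.0464), as it did without the +/+ control array of mouse 3, at -0.96 (0.0494).

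Arg1 splits arginine into ornithine and urea, and is also known from macrophages. Its signal was 10.59, 9.55 and 7.24 in -/- shTLS cultures, against 11.77, 10.40 and 7.48 in -/- control cultures. In +/+ cells it was 9.46, 6.84 and 7.62 with shTLS, against 13.06, 7.11 and 8.15 with the control hairpin. The groups overlapped throughout, and the 3 cultures of each group lay further apart than any pair of group means. Mouse 1 of each genotype was highest with either hairpin. All 6 mice had the lower Arg1 value with shTLS, by 3.59 in +/+ mouse 1 and by less in the other 5. In limma's unpaired fit the averaged difference was -1.11 ± 1.1 (SE, 95% interval -3.54 to 1.32), with adjusted p = 0.534, or 0.225 with the replicate block. With the mouse as the block, which takes out the spread between mice, the SE was 0.43 and the adjusted p 0.0879. Arg1 thus passed in none of these fits. Without the +/+ control array of mouse 1 the +/+ difference of -1.46 turned to 0.35, and without the -/- control array of mouse 1 or the -/- shTLS array of mouse 3 the -/- difference of -0.76 turned to 0.18.

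Markers of macrophages and Kupffer cells differed between the same cultures. The summed signal of the 9 of 10 such markers with a probe was 22400, 8310 and 4870 in -/- shTLS cultures, against 58100, 75300 and 6510 in -/- control cultures. It was 4700, 4260 and 4460 in +/+ shTLS cultures, against 11300, 3490 and 5430 in +/+ control cultures. The culture with the highest Arg1, the +/+ control of mouse 1, had 11300 in these markers, below both -/- control cultures of mice 1 and 2. Within the +/+ control, +/+ shTLS and -/- shTLS groups, however, the cultures ranked by these markers in the same order as by Arg1. Within the -/- control group mouse 1 had more Arg1 than mouse 2 but less of these markers, and the remaining mouse was lowest in both. The part of these cells in the Arg1 values was not tested.

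Otc makes citrulline from ornithine and carbamoyl phosphate in the mitochondrion, and its 2 probes disagreed. The dimmer probe had 5.28, 6.43 and 5.07 in -/- shTLS cultures, against 7.0, 7.41 and 5.87 in -/- control cultures. It had 5.03, 6.61 and 5.64 in +/+ shTLS cultures, against 7.44, 6.47 and 6.23 in +/+ control cultures. Groups overlapped in both genotypes and 5 of 6 mice were lower with shTLS, +/+ mouse 2 being the exception. The averaged difference of -1.06 ± 0.39 (SE) had adjusted p = 0.112, or 0.0338 with the replicate block. The shTLS values 5.28, 5.07 and 5.03 of this probe lay below 5.296, the median of all probes on each array. The brighter probe had 6.20, 8.15 and 7.68 in -/- shTLS cultures, against 7.93, 8.44 and 7.21 in -/- control cultures. In +/+ cells it had 7.03, 8.78 and 8.49 with shTLS, against 8.53, 8.37 and 8.03 with the control hairpin. Here 3 mice were lower and 3 higher with shTLS, and the averaged difference was -0.36 ± 0.40 (SE, adjusted p = 0.58, or 0.437 with the block). Over the 12 arrays the probes correlated at r = 0.673, so that the Otc value depends on which probe is read.

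**Figure D2:**
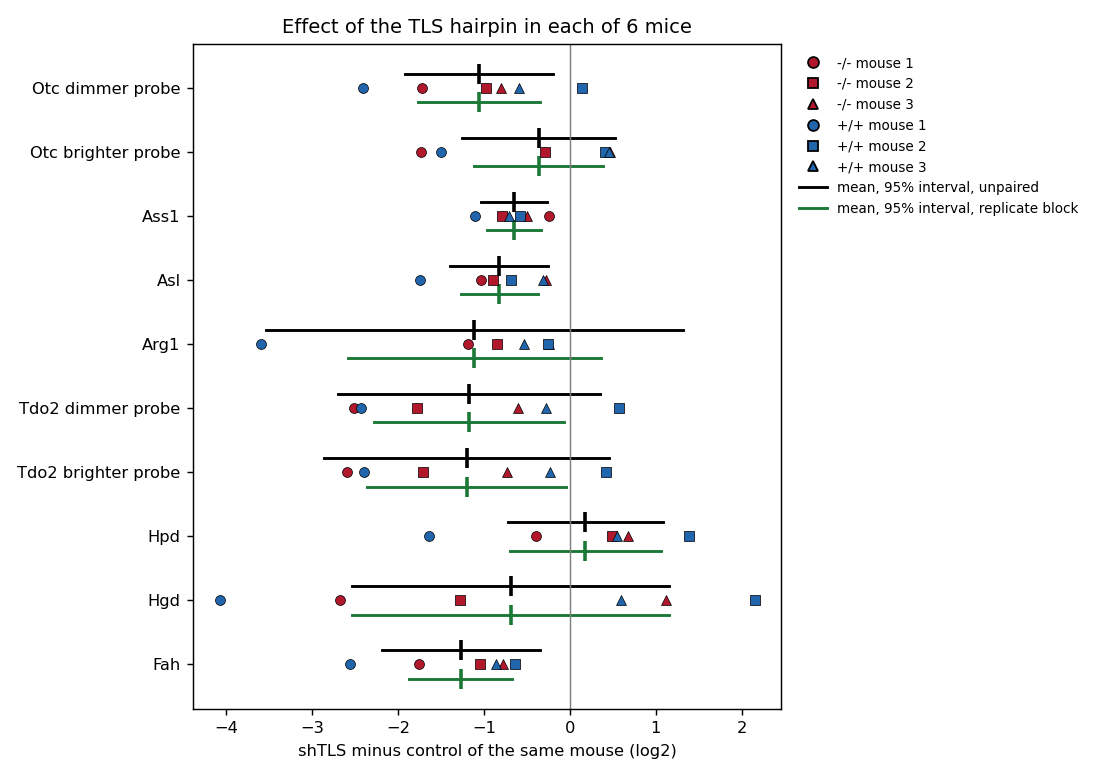
shTLS minus control within each mouse (log2, points; red -/- mice, blue +/+ mice) for the 10 probes, with the mean and 95% interval of the unpaired fit (black) and of the fit with the replicate block (green). All 6 points of Ass1, Asl, Arg1 and Fah are left of 0, while Hgd runs from -4.07 to above 0 and Hpd has 4 mice above 0.

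Fah carries out the last step of tyrosine breakdown. Its signal was 9.41, 9.13 and 8.38 in -/- shTLS cultures, against 11.16, 10.18 and 9.16 in -/- control cultures. In +/+ cells it was 9.16, 9.25 and 8.86 with shTLS, against 11.72, 9.89 and 9.71 with the control hairpin. The +/+ groups did not overlap, the -/- groups did, and all 6 mice were lower with shTLS. The averaged difference of -1.27 ± 0.42 (SE, 2.41-fold lower, 95% interval -2.19 to -0.35) had adjusted p = 0.0817 in the unpaired fit and 0.00858 with the replicate block. In +/+ cells alone the difference was -1.35, with adjusted p = 0.0466 with the replicate block, 0.0595 with the mouse as the block and 0.291 without a block, and in -/- cells -1.19, with 0.0937 with the block. Without the -/- control array of mouse 3 the unpaired averaged fit called Fah, at -1.52 (adjusted p = 0.0422).

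Hgd and Hpd act before Fah in the same route and were lower with shTLS in some mice and higher in others. Hgd had 5.48, 6.52 and 6.33 in -/- shTLS cultures, against 8.15, 7.81 and 5.20 in -/- control cultures. In +/+ cells Hgd had 5.79, 6.67 and 6.14 with shTLS, against 9.87, 4.52 and 5.54 with the control hairpin. The spread of Hgd lay in the control cultures, and 3 mice were lower and 3 higher with shTLS. Its averaged difference of -0.69 (95% interval -2.53 to 1.15, adjusted p = 0.615) turned to 0.11 without the +/+ control array of mouse 1. In +/+ cells alone the Hgd difference of -0.44 turned to 1.17 without that array.

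Hpd had the only averaged difference above 0. It read 4.84, 5.28 and 6.4 in -/- shTLS cultures, against 5.22, 4.79 and 5.72 in -/- control cultures. With shTLS +/+ cells had 5.25, 5.95 and 5.97, against 6.89, 4.56 and 5.42 with the control hairpin. Groups overlapped, 2 mice were lower and 4 higher with shTLS, and the difference of 0.18 (95% interval -0.72 to 1.08, adjusted p = 0.802) did not pass. It lay at -0.53 with arrays scaled to the spike-ins, where the median of all tested probes was -0.822.

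Tdo2 commits tryptophan to the kynurenine route, and its 2 probes gave nearly the same values (r = 0.997 over 12 arrays). The brighter probe had 7.30, 6.97 and 8.63 in -/- shTLS cultures, against 9.89, 8.68 and 9.36 in -/- control cultures. In +/+ cells it had 8.25, 6.17 and 8.59 with shTLS, against 10.64, 5.75 and 8.82 with the control hairpin. The -/- groups did not overlap, whereas the +/+ groups did and +/+ mouse 2 was lowest with both hairpins. Both probes were lower with shTLS in 5 of 6 mice, with averaged differences of -1.17 for the dimmer and -1.20 for the brighter probe. Their adjusted p was 0.289 and 0.313 in limma's unpaired fit, or 0.101 and 0.107 with the replicate block. With the mouse as the block it was 0.0664 and 0.0546. Without the +/+ control array of mouse 1 the +/+ differences of -0.72 and -0.73 turned to 0.31 and 0.38.

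Read by genotype, 0 of the 10 probes passed in -/- cells, where 0.769% of all tested probes did, and none of the 10 had an unadjusted p under 0.05, beside 11.8% of all tested probes. The replicate block also called 0 of them there, beside 5.97% of all tested probes, and 6 had an unadjusted p under 0.05 in that fit, beside 24.5% of all tested probes. In +/+ cells 0 of 10 passed in limma's unpaired fit, beside 0.994% of all tested probes that passed, and 3 had an unadjusted p under 0.05, beside 16.4%. With the replicate block Ass1 and Fah passed there, 2 of 10 lower beside 5.48% of all tested probes, and with the mouse as the block Ass1 passed (0.0396) and Fah did not (0.0595). The median difference of the 10 probes was -0.85 in -/- cells and -0.76 in +/+ cells.

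Whether the shTLS effect differed between genotypes was tested as the difference of the differences. It passed for 0 of the 10 probes and for 0 of all tested probes (0%). An unadjusted p under 0.05 was reached by 63 of all tested probes (0.252%) and by none of the 10, which does not set them apart from that share. For Ass1 the -/- effect was 0.29 above the +/+ effect, with a 95% interval of -0.47 to 1.04, and for Fah it was 0.16 above, with an interval of -1.68 to 2.0. These intervals leave room for differences as large as the effects themselves.

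The second question was whether cells without PGC-1alpha differed from +/+ cells in these genes under the same hairpin. No probe passed: 0 of 10 with the control hairpin (0.0801% of all tested probes passed), 0 of 10 with shTLS (0.0721%) and 0 of 10 averaged over vectors with the mouse as a random block (0.0881%), and none of the 10 reached an unadjusted p under 0.05 in any of the 3, where 3.13% of all tested probes did with the control hairpin, 2.18% with shTLS and 2.78% averaged over vectors. With the replicate block the count was 0 of 10 in each as well, beside 0.172% of all tested probes with the control hairpin, 0.156% with shTLS and 0.513% averaged over vectors. Averaged over vectors, the differences ran from -0.60 for the brighter Otc probe (95% interval -1.97 to 0.76) to 0.80 for Arg1 (95% interval -1.91 to 3.51). Ass1 averaged 11.49 ± 0.04 in -/- shTLS and 11.56 ± 0.33 in +/+ shTLS cultures, and 12 ± 0.24 in -/- control and 12.35 ± 0.12 in +/+ control cultures (SD, n = 3 each). The interval of its averaged genotype difference, -0.73 to 0.31, is narrow beside those of Arg1 and Otc.

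**Figure D3:**
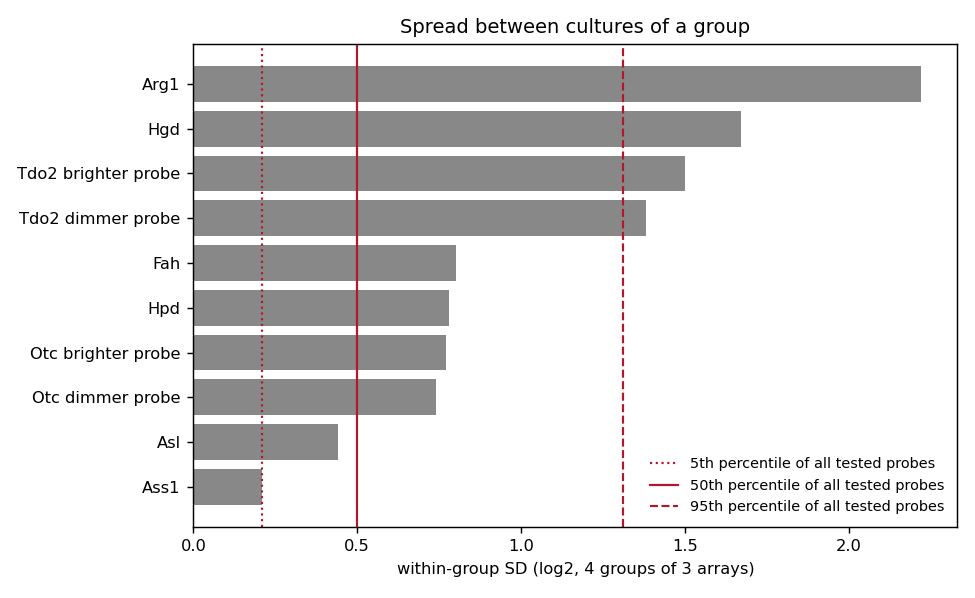
Within-group SD (log2, from 4 groups of 3 arrays) of the 10 probes, with red lines at the 5th, 50th and 95th percentile of the SD of all tested probes. Arg1, Hgd and both Tdo2 probes lie beyond the 95th percentile of 1.31, and Ass1 lies at the 5th percentile of 0.21.

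The genes differed most in how far cultures of a group were apart, as the plot of within-group SD shows. Arg1 had a within-group SD of 2.22, above 99.7% of the tested probes, and its signal spanned 74.2-fold over the 12 arrays. Hgd followed with an SD of 1.67 and a 40.6-fold span, and the Tdo2 probes with 1.38 and 1.5. At the other end Ass1 had an SD of 0.21, with 5.55% of the tested probes below it, and a 2.35-fold span, and Asl had 0.44 and a 3.42-fold span. Fah, Hpd and both Otc probes lay between, at 0.74 to 0.80.

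A profile of the 8 genes, the mean of their signals each centred on its own mean, placed the +/+ control culture of mouse 1 at 1.88 and the other 11 cultures between -0.66 and 0.94. The second highest was the -/- control culture of mouse 1 at 0.94. These 2 cultures also had the highest summed signal of the 10 hepatocyte markers, 799000 in the -/- control and 950000 in the +/+ control culture, against 425000 to 641000 in the other 10 cultures. The part of hepatocyte content in the profile was not tested. Over the 12 arrays, which share mice and hairpins, Ass1 correlated with Asl at r = 0.853 and Asl with the dimmer Otc probe at 0.902. Arg1 correlated with Fah at 0.787 and with Hgd at 0.761, but with Ass1 at 0.0365. Among the 5 other probes most like the profile, by Pearson r over the 12 arrays, were those of Bhmt at 0.971, Chpt1 at 0.970, Fga at 0.963 and Ropn1l at 0.959. Bhmt remethylates homocysteine, Chpt1 makes phosphatidylcholine and Fga is a fibrinogen chain. None of the 5 passed the averaged shTLS comparison.

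Genes that work next to these enzymes were read in the averaged shTLS comparison, with the brightest tested probe of each gene. Of 17 urea cycle companions 14 were tested, with a median difference of -0.31, and 1 of the 14 passed, lower. It was Nags, which makes the N-acetylglutamate that Cps1 requires. Nags had 8.88, 8.90 and 8.84 in -/- shTLS cultures, against 9.28, 9.37 and 9.78 in -/- control cultures. It had 9.10, 9.53 and 9.48 in +/+ shTLS cultures, against 10.11, 10.15 and 10.13 in +/+ control cultures. The groups did not overlap in either genotype and Nags was lower in 6 of 6 mice, by 0.68 ± 0.16 on average (SE, adjusted p = 0.0311). That call was lost without any 1 of 7 of the 12 arrays, at adjusted p = 0.0565 to 0.0738: -/- shTLS mice 2 and 3, -/- control mice 1 and 2, +/+ shTLS mice 1 and 3, and +/+ control mouse 1. It was also lost without both arrays of any 1 of the 6 mice (0.0573 to 0.133). Slc7a2, a transporter of arginine and other cationic amino acids, and Ddah1, which breaks down methylated arginines, passed only with the replicate block, at -1.08 and -0.65 (block adjusted p = 0.000823 and 0.0257). They and the other genes below that passed only with the block were chosen after their values were seen. With the block 3 of these 14 companions passed lower, Nags among them. Over all tested probes 14.1% were lower with the block and 3.25% in the unpaired fit, shares that stand beside every list below.

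All 8 companions of phenylalanine and tyrosine breakdown were tested, with a median of -0.64, and none passed in the unpaired fit. Pcbd1 and Qdpr, which regenerate the tetrahydrobiopterin used by phenylalanine hydroxylase, passed only with the block, at -1.22 and -0.55 (block adjusted p = 0.00769 and 0.0449). Of 11 tryptophan companions 9 were tested, with a median of -1.0, and none passed in the unpaired fit. With the block Acmsd, a decarboxylase of the kynurenine route, passed at -1.48 (0.00518), and Ido1, the tryptophan dioxygenase of many tissues outside the liver, at -1.13 (0.00864). Kyat3, a kynurenine aminotransferase, passed in the other direction, as did 14.8% of all tested probes with the block, at 0.84 (0.0125), and lay at 0.05 with arrays scaled to the spike-ins. The lowest signals of Acmsd and Ido1, 3.74 and 5.11 in -/- shTLS cultures, lay below 5.296, the median of all probes on each array. Their probes were above background on all 12 arrays.

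Of 41 genes of other amino acid breakdown 38 were tested, with a median of -0.43. The 1 that passed was Tdh, the threonine dehydrogenase of mice, which was higher, as were 4.54% of all tested probes. Tdh had 4.65, 5.72 and 6.54 in -/- shTLS cultures, against 3.86, 4.49 and 4.43 in -/- control cultures. In +/+ cells it had 5.39, 6.23 and 6.51 with shTLS, against 3.78, 4.61 and 4.70 with the control hairpin. All control values of Tdh lay below 5.296, the median of all probes on each array, though its probe was above background on all 12. Tdh did not overlap between hairpins in either genotype and was higher in 6 of 6 mice, by 1.53 ± 0.34 (SE, adjusted p = 0.025). It was 0.89 higher with spike-in scaling and 0.51 higher with normexp background correction, in both cases past the threshold. The call was lost without any 1 of 7 of the 12 arrays (adjusted p = 0.052 to 0.0703), namely -/- shTLS mice 2 and 3, -/- control mice 1 and 2, +/+ shTLS mice 2 and 3, and +/+ control mouse 1. It was lost as well without both arrays of any 1 of 4 of the 6 mice (0.0649 to 0.123), and held without -/- mouse 1 or +/+ mouse 1. With the block Gpt2, Ivd and Cdo1 also passed, lower, 3 of the 38 beside 14.1% of all tested probes. Bcat2 passed with the block too, higher, at 0.44, or -0.16 with spike-in scaling, with a probe above background on 10 of 12 arrays. A second probe of Bcat2, above background on 9 arrays, passed in both fits at 1.58 (adjusted p = 0.0447, or 0.0186 with the block). A second probe of Ivd passed in the unpaired fit at -1.27 (adjusted p = 0.0168).

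**Figure D4:**
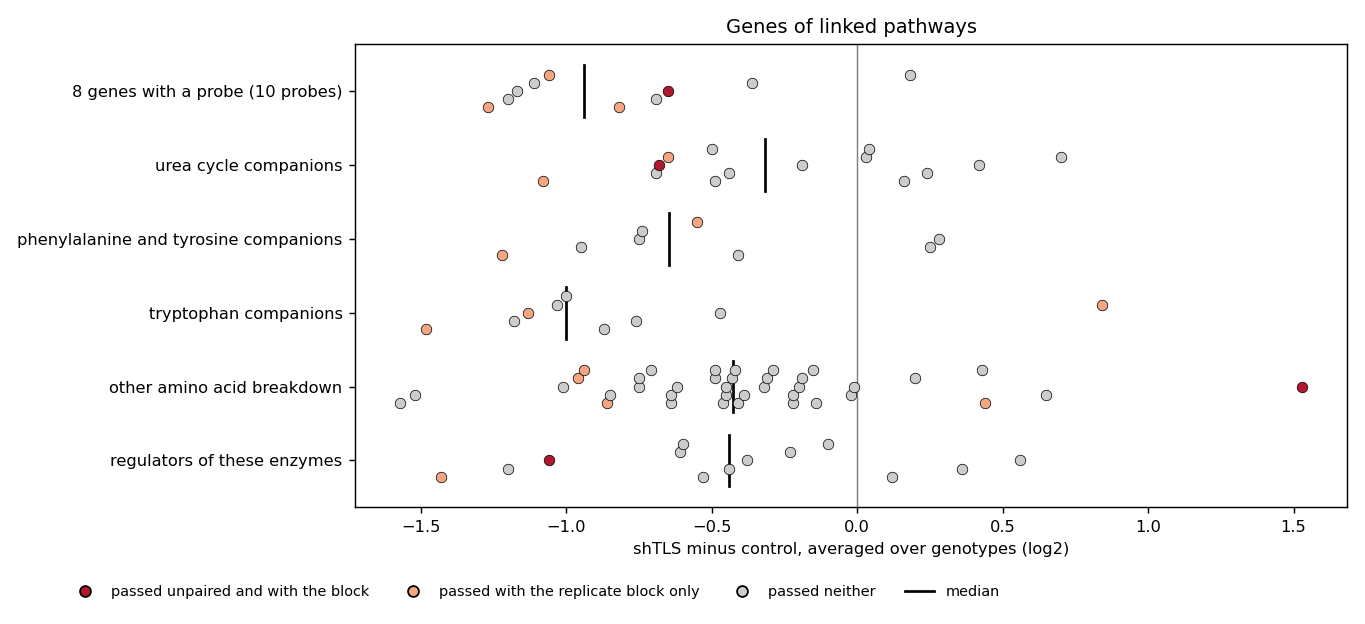
shTLS minus control averaged over genotypes (log2) for the 10 probes and for the tested genes of 5 companion lists, with a black bar for each median, red for probes that passed at an adjusted p under 0.05 in both fits and orange for those that passed only with the replicate block. The medians run from -1.0 (tryptophan companions) to -0.31 (urea cycle companions), and 1 gene, Tdh, passed above 0 in both fits by its brightest tested probe.

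Of 14 regulators of these enzymes 13 were tested, with a median of -0.44, and 1 passed, lower. It was Cebpa, a transcription factor of hepatocyte genes, among them those of the urea cycle. Cebpa had 8.49, 7.39 and 8.26 in -/- shTLS cultures, against 8.98, 9.46 and 9.20 in -/- control cultures. It had 8.11, 8.22 and 8.35 in +/+ shTLS cultures, against 9.53, 8.71 and 9.28 in +/+ control cultures. Neither genotype showed overlap, and the averaged difference was -1.06 ± 0.23 (SE, adjusted p = 0.0236, lower in 6 of 6 mice). A second, dimmer probe of Cebpa gave -0.52 (adjusted p = 0.183), and the call of the first was lost without any 1 of 3 arrays: those of -/- control mouse 2 (0.0675), +/+ control mouse 1 (0.0581) and +/+ shTLS mouse 3 (0.0548). It was also lost without both arrays of any 1 of 4 of the 6 mice (0.0643 to 0.121), and held without -/- mouse 1 or +/+ mouse 2. Klf15, a glucocorticoid-induced factor that activates genes of amino acid breakdown, passed only with the block, at -1.43 (block adjusted p = 0.0091), and its second probe lay at -0.20 (block adjusted p = 0.644). No gene of the 5 companion lists passed the unpaired fit in any of the other 6 comparisons. With the replicate block Tdh and Slc7a2 passed in each genotype, and Nags, Acmsd, Kyat3 and Klf15 in +/+ cells.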

How the data were processed

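Single-colour Agilent arrays measured RNA of 12 cultures, 3 in each of 4 groups. The authors thresholded signals at 1, quantile-normalized them in GeneSpring and analysed them on the log2 scale, per the series' design text, and their deposited table holds log2 values. Per the file headers, the spot intensity was extracted with Agilent Feature Extraction 10.1.1.1 and is background-subtracted. Per the submitters' processing notes limma was also used.

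Here, processed signals were floored at 1, flagged spots (74 to 206 per array) left out, spots of a probe averaged, and values taken to log2 and quantile-normalized. No spot was saturated. Probes were named through the RefSeq accession in the array files and a RefSeq gene table (24375 of 41174 probes matched 1 symbol). A probe was tested where some group had it well above background on each of its arrays (24960 probes). Between 22706 and 26679 probes were above background per array, and 3 arrays per group limit the precision.

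limma 3.58.1 (R 4.3.3) fitted 4 group means over the 12 arrays, with Benjamini-Hochberg adjustment over all tested probes in each comparison. The genotype difference averaged over vectors had the mouse as a random block (statmod 1.5.0). The unpaired fit is the main one. Alternatives were the replicate or mouse block, scaling to 8 spike-in probes or the 75th percentile, normexp background correction (offset 50, on the median signal, since the files hold no mean signal), the deposited table, 2 other filters, 1 probe per gene, only the groups compared, and leaving out arrays. Leaving out both arrays of a mouse was added after seeing the data. The unpaired fit was tested on simulated data, drawn without correlation between the cultures of a mouse. The fits with a block were not simulated.

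The same replicate number marks the same mouse within a genotype and the same slide across genotypes, per the labels and the array files. Deviations from group means correlated at 0.456 to 0.673 between both cultures of a mouse and at 0.217 to 0.648 between same-numbered cultures of different genotypes, so that the numbers were taken as pairs and blocked values are given where they change a call. Each group always lay at the same position of the slide, so that position and group cannot be told apart. Replicates of a group correlated at 0.922 to 0.971, and no pair of arrays was identical.

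Genes were named by rule: all probes of the 9 genes, Ppargc1a as a check, up to 5 called genes per companion list by size of the averaged shTLS difference, and the 5 probes most like the mean profile. Some results that this rule covers are not reported here. The genes, the lists and the rule were chosen with earlier results of these data known.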

Additional observations from a re-analysis of the deposited data

How the results depend on the processing

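Of the 10 probes the averaged shTLS comparison called 1, which became 4 with the replicate block, 4 with the mouse block, 7 with spike-in scaling and 0 with 75th percentile scaling, and 0 to 2 on leaving out 1 array or both arrays of 1 mouse. In +/+ cells the count of 0 became 2 with the replicate block, 1 with the mouse block and 3 with spike-in scaling, and in all other settings and in the other 5 comparisons it stayed at 0. The replicate block changed no other count of these probes. Spike-in scaling moved the median of all probes by -0.80 averaged over genotypes, -0.76 in -/- and -0.85 in +/+ cells, and the part of this shift in the larger counts was not tested. Under 75th percentile scaling that median lay at 0.111 in +/+ cells. Over all tested probes the averaged comparison called 1944 (58.2% higher), against 13925 (4.94% higher) with spike-in scaling, 2384 (73.9% higher) with 75th percentile scaling, 7208 with the replicate block, and 312 to 2457 with arrays left out. In -/- cells the split of calls was 95.8% higher, or 56.4% with spike-in scaling, and in +/+ cells 83.5%, 4.69% with spike-in and 92.1% with 75th percentile scaling. Calls in the single comparisons ranged over the other settings from 97 to 2031 in -/- cells (192 as reported) and from 48 to 6052 in +/+ cells (248), and for genotype from 4 to 43 with the control hairpin (20), 3 to 39 with shTLS (18) and 7 to 128 averaged (22).

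With spike-in scaling Hpd lay at -0.38 in -/- cells, -0.67 in +/+ cells and -0.53 averaged, and the brightest Bcat2 probe at -0.16 averaged. The median of all tested probes lay at -0.788 in -/- cells, -0.86 in +/+ cells and -0.822 averaged under this scaling. The sign of such a value alone does not give a change relative to other genes. Hpd lay at -0.01 in +/+ cells with normexp. With arrays left out the following crossed 0. In -/- cells these were the brighter Otc probe (-0.92 to 0.05), Arg1 (-1.96 to 0.18) and Hpd (-0.19 to 0.59). In +/+ cells these were the brighter Otc probe (-0.55 to 0.33), Arg1 (-2.63 to 0.35), Tdo2 (-1.96 to 0.31 and -2.06 to 0.38), Hpd (-0.44 to 0.73) and Hgd (-1.5 to 1.17). Averaged over genotypes these were Hpd (-0.14 to 0.61) and Hgd (-1.34 to 0.22). Ass1, Asl, Fah, Arg1, Tdo2 and Otc kept the sign of the averaged difference in every setting run. The cause of these changes was not tested. Each of the 10 probes was well above background on every array. The lowest signals of Hpd, Hgd and the dimmer Otc probe, 4.56, 4.52 and 5.03, lay below 5.296, the median of all probes on each array. How far background entered the differences of such dim probes was not tested.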
